A study of Mus musculus with 48 samples.

Results

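The 9 genes described here encode the adrenergic receptors and the cyclic AMP machinery of the fat cell, and they were chosen by name: the receptors Adrb1, Adrb3 and Adra2a, the adenylyl cyclase Adcy3, the protein kinase A subunit Prkar2b, the phosphodiesterases Pde3b, Pde4b and Pde4d, and the deiodinase Dio2. All 9 were among the 55450 genes of the deposited tables. RNA was sequenced from C57BL/6 mouse cells of a pair of genotypes, wild type (WT) and DKO, which lacks functional Hmgn1 and Hmgn2 in the germline. Both code for proteins that bind nucleosomes. Preadipocytes were taken from the inguinal white fat (iWAT) of mice 8 to 12 weeks of age and sampled at days 0, 3, 6 and 9. Mouse embryonic fibroblasts (MEFs) were sampled at days 0, 4, 8 and 12. Each genotype had 3 libraries per day and cell type, which made 48. Cells of both genotypes received the same media. Differentiation medium held rosiglitazone (1 μM), T3 (1 nM), IBMX (0.5 mM), dexamethasone (5 μM) and insulin (0.5 μg/ml). Preadipocytes stayed in it for 4 days and MEFs for 8 days, and a maintenance medium with insulin and T3 alone followed for 4 days. For preadipocytes this schedule ends before the last sampling at day 9. By these times, day 3 preadipocytes and days 4 and 8 MEFs were sampled in differentiation medium. Days 6 and 9 preadipocytes and day 12 MEFs were sampled after it, so time and medium cannot be told apart. Nor can IBMX be told apart from dexamethasone and rosiglitazone, which were left out together with it. The animals and embryos behind each library are not given in the labels, and the p-values measure the spread between these libraries, which may be technical.

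In adipocytes, noradrenaline acts through β receptors that couple to Gs and raise cyclic AMP, and through α2 receptors that couple to Gi and lower it. Adenylyl cyclases make cyclic AMP, phosphodiesterases destroy it, and protein kinase A, a complex of regulatory and catalytic subunits, carries the signal to lipid breakdown and, through CREB, to genes with cyclic AMP response elements (CREs). In brown and beige fat this pathway drives heat production, and Dio2, which makes active T3 from thyroxine, is one of its classic target genes. IBMX inhibits phosphodiesterases.

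Summed counts per library ran from 18962481 to 36006679. Hmgn2 was at 0 to 0.357 CPM (counts relative to library size, scaled with TMM) in DKO libraries against 34.7 to 188 CPM in WT libraries and was called lower at all 8 combinations of cell type and day. Hmgn1 kept 64.6 to 107 CPM in DKO libraries against 82.3 to 206 in WT libraries, and was called lower at day 3 of preadipocytes and day 4 of MEFs alone. At day 9 of preadipocytes its log2 fold change was −0.05 (edgeR adjusted p = 0.685). Counts per gene include exons outside the deleted part, and which exons these reads came from was not tested. The sum of 6 adipocyte markers (Adipoq, Fabp4, Plin1, Lipe, Cd36, Cidec) was 16.1 to 232 CPM at day 0, with Cidec under 1 CPM in each day 0 group. It reached 17783 to 35716 CPM in preadipocytes of days 6 and 9 and 11050.0 to 17915 CPM in day 12 MEFs. The day 4 and day 8 MEF libraries of one group stood far apart in this sum, at 2625, 513 and 480 CPM in WT cells of day 4 and at 9130.2, 6682 and 1352 CPM in DKO cells of day 8. The sum of 5 macrophage markers (Ptprc, Cd68, Adgre1, Csf1r, Lyz2) was 31.6 to 461 CPM in preadipocytes of days 0 and 3, 1215 to 8802 CPM at days 6 and 9, and 1991 to 7973 CPM in MEFs. The sum of 4 endothelial markers (Pecam1, Cdh5, Kdr, Tie1) was 2.79 to 25.4 CPM in preadipocytes and 3.76 to 21.4 CPM in MEFs. That of 4 neuronal or sympathetic markers (Th, Dbh, Snap25, Tubb3) was 2.31 to 115 CPM in preadipocytes and 6.02 to 20.1 CPM in MEFs. Of these genes, Th, Dbh and Tie1 were under 1 CPM in each group. In bulk RNA, fewer cells of a type and less RNA per cell cannot be told apart.

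The course of the 9 genes over days in WT cells fell into 3 kinds. Adrb3, Pde3b and Prkar2b rose with differentiation to the late days. Pde4b, Pde4d and Dio2 peaked on the days sampled in differentiation medium and declined after them. Adra2a and Adcy3 had their highest means at day 0 or day 3. Adrb1 was near the limit of detection. Neighbouring days were compared in WT cells with edgeR's quasi-likelihood test, and genes past a fold change of 1.5 with an adjusted p under 0.05 were called. In preadipocytes, 6 of 9 genes rose and 0 fell from day 0 to day 3, where 24.7% of all tested genes were called. From day 3 to day 6, 4 rose and 4 fell (46.6% of all tested genes), and from day 6 to day 9, 3 fell (14% of all tested genes). In MEFs, 5 rose and 3 fell from day 0 to day 4, where 33.2% of all tested genes were called, and 1 rose and 3 fell from day 8 to day 12 (21.2%). No member was called from day 4 to day 8 (1.72% of all tested genes). At an unadjusted p under 0.05 there were 4 members, beside 4586 of all 16359 tested genes. DESeq2 called 3 members, beside 6.91% of all genes it tested. The median log2 fold change of the members was 1.20, −0.57 and −0.23 over the successive steps of preadipocytes and 1.79, 0.10 and 0.16 over those of MEFs, against medians over all tested genes between −0.01 and 0.04. The count of day 8 against day 4 was 4 without WT day 4 replicate 1 and 5 without WT day 8 replicate 2. These are the libraries with a high and a low adipocyte marker sum for their day. The 2 refits called 14.4% and 15.3% of all tested genes, against 1.72% with all libraries.

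**Figure D1:**
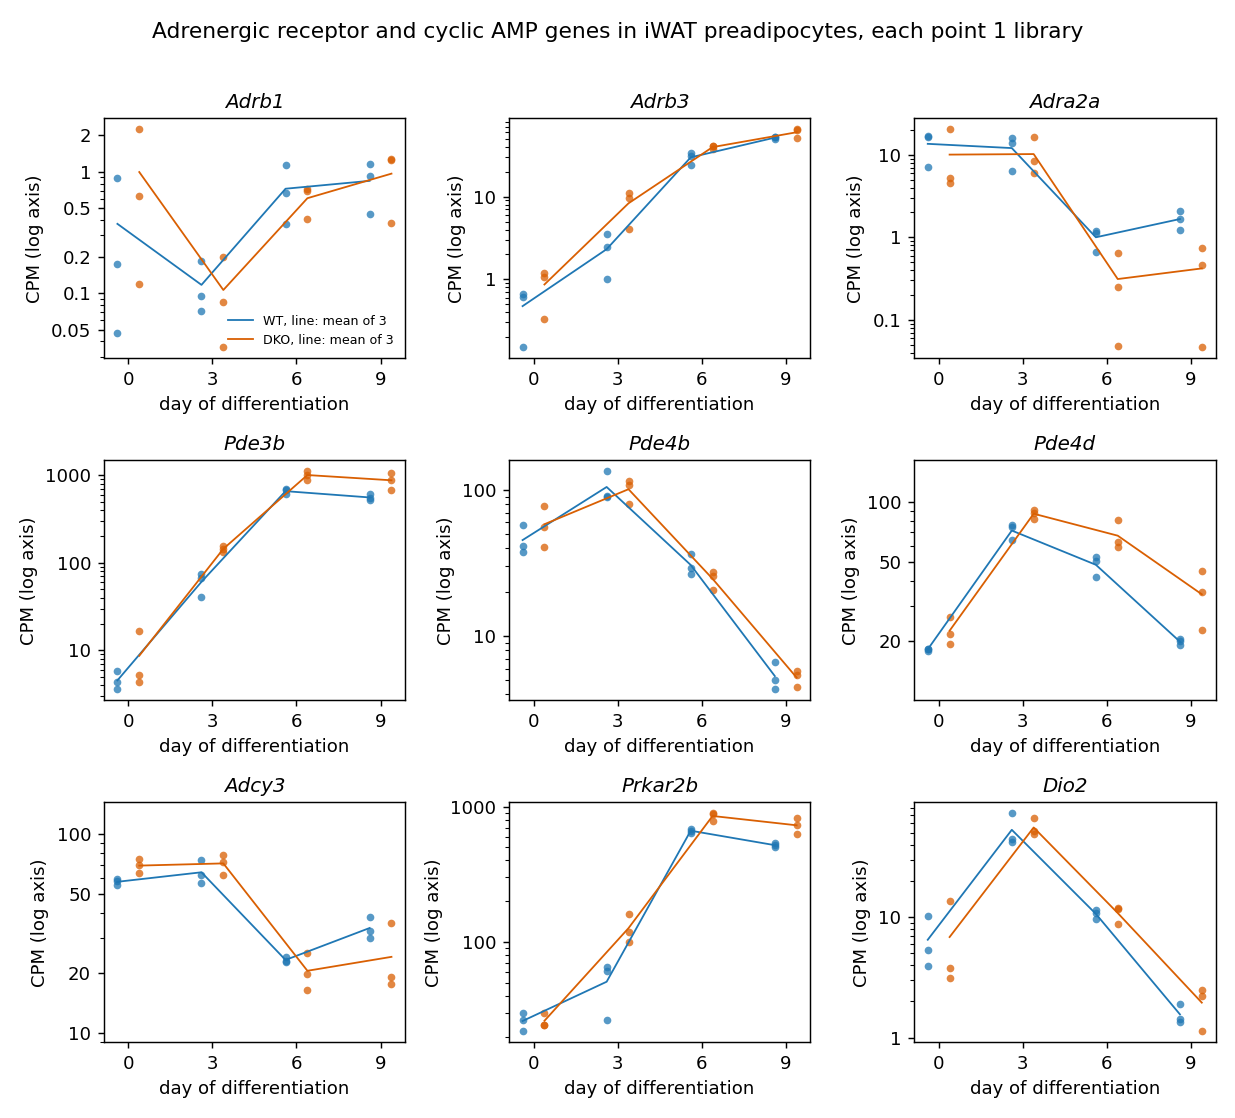
CPM of the 9 genes in each of the 24 preadipocyte libraries by day of differentiation (log axis, WT blue, DKO orange, lines through the means of 3 libraries). Adrb3, Pde3b and Prkar2b climbed to day 6, while Pde4b, Pde4d and Dio2 peaked at day 3.

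**Figure D2:**
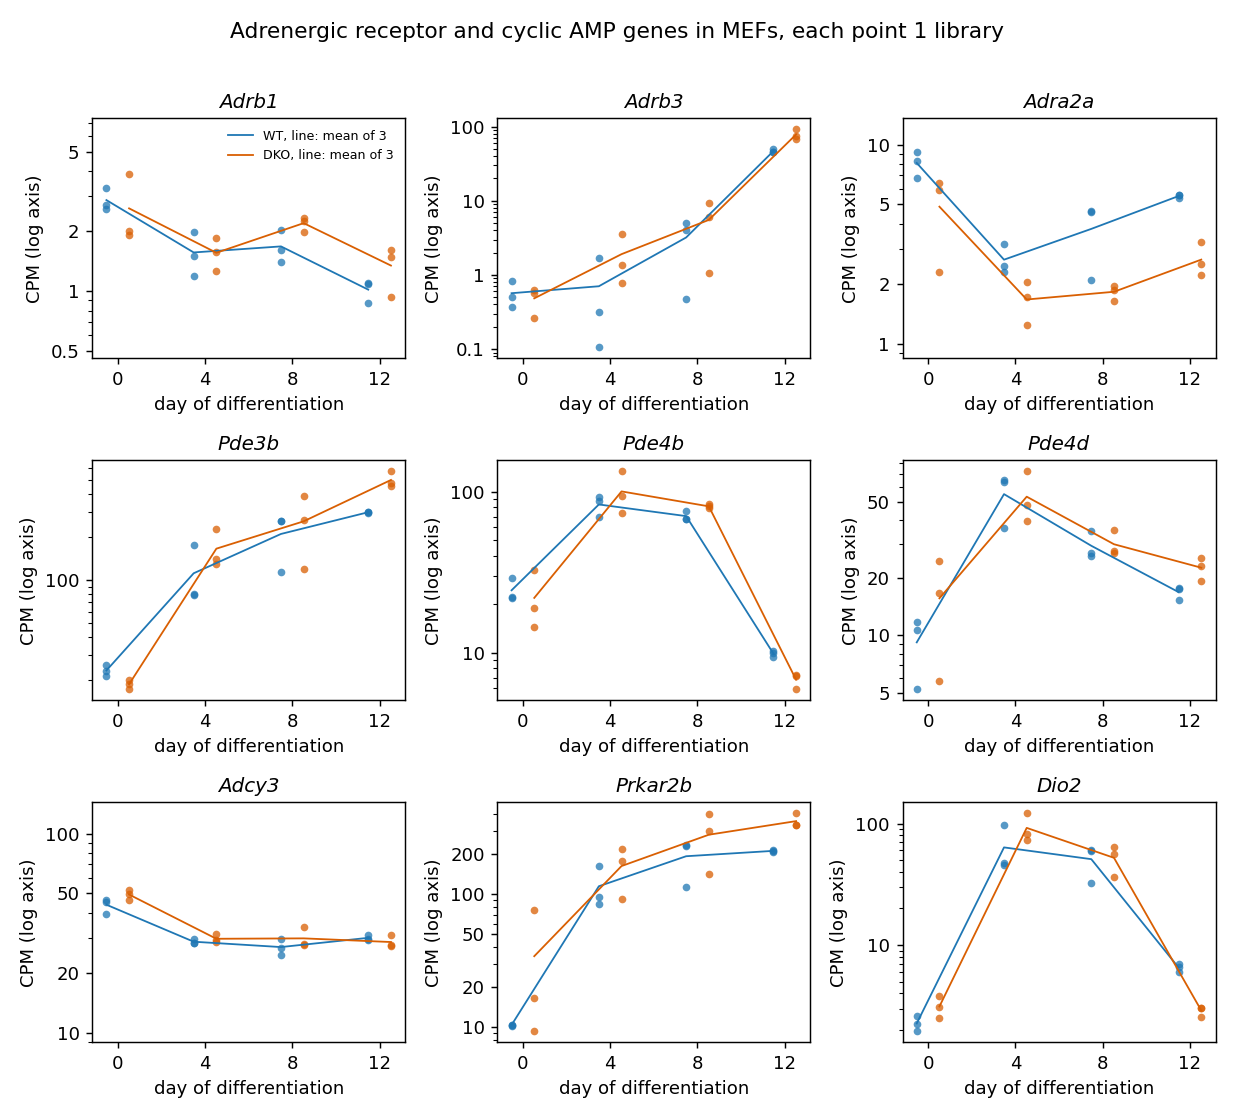
CPM of the 9 genes in each of the 24 MEF libraries by day of differentiation (log axis, WT blue, DKO orange, lines through the means of 3 libraries). At days 4 and 8 libraries of one group spread widely, and at day 12 they lay close together.

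Adrb3 (chromosome 8, 27225776 to 27250616, mm10, minus strand) encodes the β receptor typical of rodent adipocytes. In WT preadipocytes its level was 0.614, 0.653 and 0.149 CPM at day 0, 0.999, 2.44 and 3.50 CPM at day 3, 24.4, 34.1 and 31.4 CPM at day 6 and 49.4, 53.3 and 53.1 CPM at day 9. Each day stood above the one before it in every library. The log2 fold change was 2.28 ± 0.49 (SE) from day 0 to day 3 (edgeR adjusted p = 0.00396) and 3.66 ± 0.34 from day 3 to day 6 (edgeR adjusted p = 5.66e-06). The step from day 6 to day 9 was 0.81 ± 0.29 and did not pass (edgeR adjusted p = 0.0618), although the libraries did not overlap. It was called by DESeq2 (adjusted p = 0.038) and by edgeR on the 6 libraries of these days alone (adjusted p = 0.000699). In WT MEFs Adrb3 stayed between 0.106 and 1.69 CPM at days 0 and 4, was 4.07, 0.469 and 5.07 CPM at day 8 and 49.7, 45.8 and 44.9 CPM at day 12, a rise of 3.90 ± 0.70 on the log2 scale over the last step (edgeR adjusted p = 0.00171). Its reads may be mixed with those of the antisense gene Gm45470, which had at most 103 counts, since whether the counting used strand is not given in the sources used here.

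At day 3 the Adrb3 levels of DKO preadipocytes were 4.10, 11.1 and 9.69 CPM, all above the WT libraries. With 3 against 3 libraries, an order without overlap gives an exact p of 0.1 at best. The share of all genes with such an order was not counted, here or below. The log2 fold change between genotypes was 1.82 ± 0.54 and did not pass (edgeR adjusted p = 0.244), whereas it was called by DESeq2 (adjusted p = 0.012) and when all days of the cell type were fitted together (adjusted p = 0.00969). At day 6 the DKO libraries, at 37.9, 41.1 and 40.7 CPM, lay above the WT libraries by 0.41 ± 0.12 on the log2 scale, which passed the test (edgeR adjusted p = 0.042) but was under 1.5-fold. At day 9 the difference was 0.19 ± 0.10 (edgeR adjusted p = 0.253). In day 12 MEFs Adrb3 was called higher in DKO cells, at 74.5, 91.8 and 69.0 CPM, none of which overlapped the WT libraries, with a log2 fold change of 0.78 ± 0.11 (edgeR adjusted p = 0.00162).

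Adrb1 (chromosome 19, 56722199 to 56733113, mm10, plus strand), the β receptor best known from the heart, was scarce throughout, at no more than 2.24 CPM in any preadipocyte library and between 0.872 and 3.90 CPM in MEFs. In WT preadipocytes it rose from 2, 4 and 2 counts at day 3 to 9, 27 and 15 counts at day 6 (log2 fold change 2.61 ± 0.86, edgeR adjusted p = 0.0186), and the call was lost without WT day 3 replicate 1, WT day 3 replicate 3 or WT day 6 replicate 2 (edgeR adjusted p = 0.0508, 0.0638 and 0.0815). Adrb1 of WT MEFs fell by 0.85 ± 0.23 on the log2 scale from day 0 to day 4 (edgeR adjusted p = 0.00915). A further fall of 0.69 ± 0.25 from day 8 to day 12 (edgeR adjusted p = 0.0463) was lost in 5 of the 6 refits without 1 library and under 4 other settings. Adrb1 differed between genotypes in none of the 7 comparisons where it was tested, at unadjusted p from 0.141 to 0.993, and its levels were too low for the filter in day 3 preadipocytes.

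Adra2a (chromosome 19, 54044151 to 54048982, mm10, plus strand) encodes the α2A receptor, which opposes the β receptors through Gi. In WT preadipocytes it fell between days 3 and 6, the step over which Adrb3 rose most. WT preadipocytes had 17.0, 16.7 and 7.12 CPM at day 0 and 16.1, 13.8 and 6.35 CPM at day 3, and then 1.19, 1.14 and 0.669 CPM at day 6. The fall was 3.58 ± 0.46 on the log2 scale (edgeR adjusted p = 5.22e-05). At day 9 the level was 1.68, 2.09 and 1.23 CPM, a difference of 0.74 ± 0.51 from day 6 that did not pass (edgeR adjusted p = 0.312). With the replicate number as a block it was 0.77 (edgeR adjusted p = 0.0222) and was called. WT MEFs went from 9.19, 6.79 and 8.26 CPM at day 0 to 2.29, 2.47 and 3.16 CPM at day 4 (−1.60 ± 0.26 on the log2 scale, edgeR adjusted p = 0.000391), and stood at 5.58, 5.57 and 5.38 CPM at day 12.

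The mean of Adra2a was lower in DKO than in WT cells on each day. With all libraries edgeR called it in day 12 MEFs alone, and the libraries overlapped at days 0 and 3 of preadipocytes. In MEFs the DKO libraries were all below the WT libraries at each of the 4 days, at 2.20, 3.23 and 2.50 CPM on day 12, when the fall of 1.03 ± 0.17 on the log2 scale was called (edgeR adjusted p = 0.000183). The log2 fold changes at days 0, 4 and 8 were −0.71, −0.65 and −1.05 and did not pass (edgeR adjusted p = 0.553, 0.827 and 0.516). In preadipocytes the DKO libraries had 5, 11 and 1 counts at day 6 against 29, 27 and 15 in WT libraries, and 9, 16 and 1 counts at day 9 against 30, 45 and 24. The log2 fold changes of −1.75 ± 0.60 and −2.01 ± 0.63 did not pass (edgeR adjusted p = 0.0725 and 0.104). Without DKO replicate 2, the DKO library with the most counts on both days, they were −2.74 and −2.76 and were called (edgeR adjusted p = 0.0217 and 0.0255). These refits called 11% and 9.72% of all tested genes, against 11.6% and 1.24% with all libraries. The summed macrophage markers were also lower in DKO preadipocytes of day 6, at 1854 to 3959 CPM against 5118 to 8802 CPM, and in DKO MEFs of day 12, at 1991 to 2317 against 3344 to 3386 CPM. The same held at day 9 of preadipocytes, at 1215 to 2472 against 2537 to 5452 CPM, and at day 0 of MEFs, at 5311 to 5767 against 5939 to 7973 CPM, whereas the ranges overlapped in MEFs of days 4 and 8. Their part in the Adra2a difference was not tested.

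Adcy3 (chromosome 12, 4133103 to 4213525, mm10, plus strand) encodes an adenylyl cyclase tied by genetics to body weight. Its highest and lowest daily means in WT cells differed 2.76-fold in preadipocytes and 1.63-fold in MEFs. WT preadipocytes held 55.5 to 59.2 CPM at day 0 and 56.8 to 73.6 CPM at day 3, and it fell by 1.46 ± 0.11 on the log2 scale to 22.6 to 24.2 CPM at day 6 (edgeR adjusted p = 4.32e-07). The step to day 9, 0.54 ± 0.11 (edgeR adjusted p = 0.00352), was under 1.5-fold, and went past it without WT day 6 replicate 3, WT day 9 replicate 1 or WT day 9 replicate 3 (0.59, 0.64 and 0.59). The level of WT MEFs fell by 0.60 ± 0.08 from day 0 to day 4 (edgeR adjusted p = 0.000103), close enough to the fold threshold that library size alone and 4 of 6 refits without 1 library took it under 1.5-fold. Adcy3 was called in no genotype comparison. The widest difference was −0.51 ± 0.28 in day 9 preadipocytes (edgeR adjusted p = 0.295). Without DKO replicate 2 it was −0.90 and called (edgeR adjusted p = 0.00564), in a refit that called 9.72% of all tested genes against 1.24%. The gene overlaps Cenpo on the other strand, which had at most 324 counts.

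Prkar2b (chromosome 12, 31958476 to 32061296, mm10, minus strand) encodes RIIβ, the regulatory subunit of protein kinase A that prevails in adipocytes. WT preadipocytes had 26.7, 21.9 and 29.7 CPM at day 0, 26.7, 60.8 and 65.1 CPM at day 3, 642, 683 and 666 CPM at day 6 and 500.2, 519 and 538 CPM at day 9. Most of the rise fell between days 3 and 6, at 3.70 ± 0.28 on the log2 scale (edgeR adjusted p = 1.29e-06). The earlier step, 0.96 ± 0.26 (edgeR adjusted p = 0.0142), was lost without WT day 0 replicate 2, WT day 3 replicate 2 or WT day 3 replicate 3 (edgeR adjusted p = 0.0557, 0.0502 and 0.0585). Prkar2b of WT MEFs rose from 10.2, 10.4 and 10.4 CPM at day 0 to 164, 96.1 and 84.6 CPM at day 4, by 3.49 ± 0.32 (edgeR adjusted p = 1.03e-05), and stood at 212, 209 and 216 CPM at day 12.

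DKO preadipocytes had 99.7, 162 and 118 CPM of Prkar2b at day 3, all above the WT libraries, by 1.30 ± 0.36 on the log2 scale (edgeR adjusted p = 0.224, DESeq2 adjusted p = 0.00493). At day 6 they had 783, 883 and 892 CPM, a difference of 0.36 ± 0.10 that passed under 1.5-fold (edgeR adjusted p = 0.033), and at day 9 727, 626 and 829 CPM, a difference of 0.46 ± 0.11 (edgeR adjusted p = 0.0626). In day 12 MEFs it was called higher, at 330.0, 407 and 330.2 CPM in DKO cells, by 0.78 ± 0.08 (edgeR adjusted p = 0.000157). In day 0 MEFs the DKO libraries themselves stood apart at 9.29, 76.7 and 16.6 CPM, and the library with 76.7 CPM also had the highest adipocyte marker sum of that day, 232 CPM.

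Pde3b (chromosome 7, 114415281 to 114539251, mm10, plus strand) encodes the phosphodiesterase through which insulin lowers cyclic AMP in fat cells. Its mean rose 145-fold in WT preadipocytes between days 0 and 6, from 4.30, 5.74 and 3.59 CPM at day 0 to 40.6, 67.7 and 73.9 CPM at day 3 and 614, 689 and 674 CPM at day 6. The log2 fold changes were 3.73 ± 0.23 and 3.44 ± 0.22 (edgeR adjusted p = 1.39e-06 and 2.01e-07). At day 9 the level was 525, 547 and 604 CPM. WT MEFs started higher, at 25.5, 23.2 and 21.6 CPM, was 176, 79.9 and 78.5 CPM at day 4 (2.26 ± 0.37, edgeR adjusted p = 0.000539) and reached 298, 297 and 295 CPM at day 12. Per exon length, Pde3b was 8.08 ± 2.51% (SD, n = 3) of the sum of Pde3b, Pde4b and Pde4d in WT preadipocytes of day 0 and 96.6 ± 0.422% of it at day 9. In WT MEFs that share was 45.5 ± 1.90% at day 0 and 93.3 ± 0.239% at day 12.

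**Figure D3:**
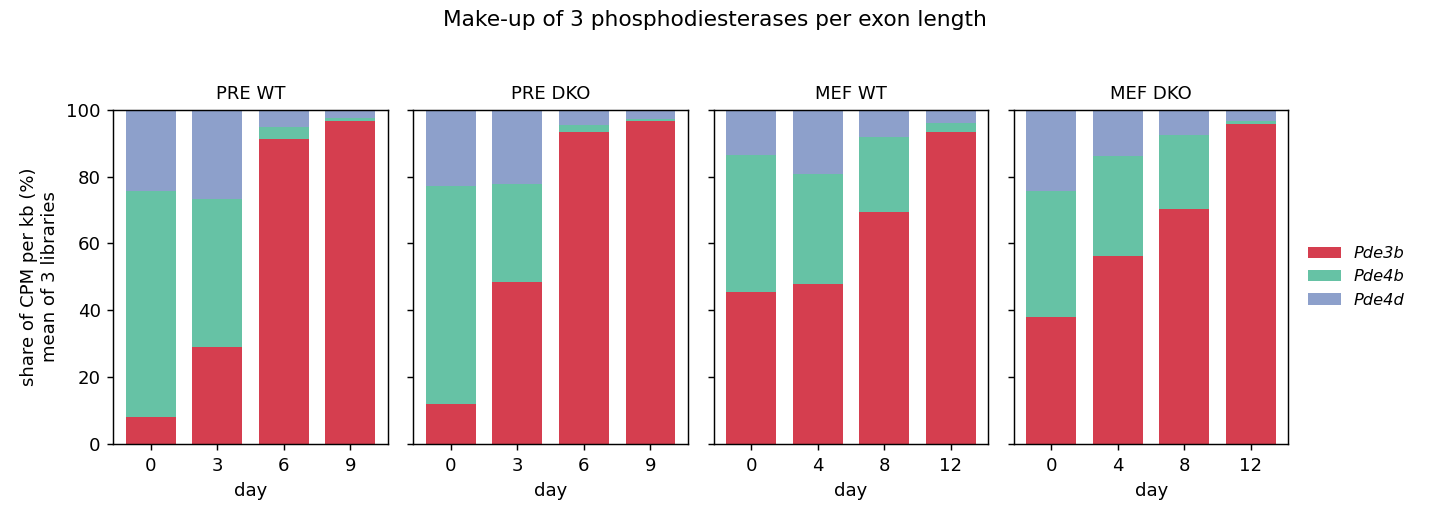
Share of each gene in the summed CPM per kb of Pde3b, Pde4b and Pde4d, as means of 3 libraries, by cell type, genotype and day. Pde3b made up over 90% of the sum on the last day of each course.

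Pde3b was the 1 member called between genotypes in preadipocytes. At day 6 DKO cells held 891, 1020.0 and 1109 CPM, above every WT library, with a log2 fold change of 0.61 ± 0.11 (edgeR adjusted p = 0.0098). That value lies near the fold threshold. Without WT replicate 1 or DKO replicate 3 it was 0.56 and 0.53, under 1.5-fold, and without WT replicate 3 the edgeR adjusted p was 0.0513. The call was also lost with library size alone (0.51), limma-voom (0.54) and 1 fit over all days (adjusted p = 0.166). At day 3 the DKO libraries, at 134, 157 and 142 CPM, lay above the WT libraries by 1.24 ± 0.22 (edgeR adjusted p = 0.1), which was called by DESeq2 (adjusted p = 1.29e-05), in 1 fit over all days (adjusted p = 0.0393) and, at 1.03, without WT replicate 1 (edgeR adjusted p = 0.0394). At day 9 DKO cells had 892, 684 and 1055 CPM, a difference of 0.62 ± 0.15 (edgeR adjusted p = 0.0698). Without DKO replicate 2 it was 0.78 and called (edgeR adjusted p = 0.00473), in a refit that called 9.72% of all tested genes against 1.24%. Pde3b was called higher in DKO MEFs of day 12, at 451, 571 and 470.3 CPM, by 0.78 ± 0.09 (edgeR adjusted p = 0.000216). At day 0 of the MEF course the DKO libraries lay below the WT libraries, at 20.1, 18.9 and 17.3 CPM (−0.29 ± 0.11, edgeR adjusted p = 0.532).

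Dio2, Pde4b and Pde4d, the genes that peaked in differentiation medium, are known as targets of cyclic AMP signalling. The bases before the starts of the members were searched for the CRE and other motifs. Whether cyclic AMP caused the peaks was not tested. RefSeq (GRCm38.p6) gave a start for 7 of the 9 members, with 12 starts in all, and the 250 bases before each were searched on both strands. The motifs were the full CRE (TGACGTCA), its core (TGACG, which overlaps the full CRE), the nuclear receptor core (AGGTCA), a C/EBP motif (TTGCNNAA) and the TATA box (TATAAA). Of 32851 such windows of all genes, 1.55% held the full CRE, 17.8% its core, 14.0% the nuclear receptor core, 9.56% the C/EBP motif and 12.4% the TATA box. Among the members the full CRE was found before Dio2 alone, 95 bases before the start, together with the C/EBP motif at −82 and the TATA box at −30. The core alone was found before Adrb1 (−90), Adra2a (−69, with a TATA box at −29) and 1 of the 4 starts of Pde4b (−34). The Adra2a window (chr19:54045009-54045258, plus strand) lies within the span of the gene given above, which starts at 54044151. Its matches are therefore downstream of that start. The windows of Pde4b, Pde4d and Adcy3 also lie within the spans of these genes, and the bases before their outermost starts were not searched. The Prkar2b window that is not shown lies within its gene as well. No motif was found before the start listed for Pde4d or those of Adcy3 and Prkar2b. Shown are the window of Dio2 (chr12:90739039-90739288, minus strand), that of the Pde4b start with a core, up to the first annotated exon and so without the core itself (chr4:102421305-102421517, plus strand), and, for a gene with the other kind of course, that of Prkar2b up to its first annotated exon (chr12:32061297-32061527, minus strand). Each is written 5′ to 3′ with the full CRE in capitals.
Dio2: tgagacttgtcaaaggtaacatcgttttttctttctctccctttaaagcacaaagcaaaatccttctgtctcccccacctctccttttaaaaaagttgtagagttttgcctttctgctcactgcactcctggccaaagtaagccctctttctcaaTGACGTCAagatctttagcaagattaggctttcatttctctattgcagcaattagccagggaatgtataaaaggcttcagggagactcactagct
Pde4b: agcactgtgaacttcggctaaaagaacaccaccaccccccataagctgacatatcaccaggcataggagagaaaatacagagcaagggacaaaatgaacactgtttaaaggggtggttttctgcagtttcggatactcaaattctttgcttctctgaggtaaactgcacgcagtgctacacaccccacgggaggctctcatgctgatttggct
Prkar2b: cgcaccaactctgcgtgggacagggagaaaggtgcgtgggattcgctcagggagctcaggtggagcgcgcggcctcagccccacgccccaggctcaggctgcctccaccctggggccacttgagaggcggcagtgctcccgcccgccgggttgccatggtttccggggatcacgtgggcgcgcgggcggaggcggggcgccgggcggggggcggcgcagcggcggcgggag
A match is a description of letters, and counts per gene do not tell which start was used.

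Dio2 (chromosome 12, 90724552 to 90738438, mm10, minus strand) had a sharp peak in both cell types. WT preadipocytes held 3.90, 5.36 and 10.2 CPM at day 0, 72.8, 41.7 and 44.9 CPM at day 3, 10.9, 9.67 and 11.4 CPM at day 6 and 1.34, 1.44 and 1.89 CPM at day 9. The log2 fold changes of the 3 steps were 3.03 ± 0.33, −2.32 ± 0.31 and −2.75 ± 0.37 (edgeR adjusted p = 5.98e-05, 7.54e-05 and 0.000559). In WT MEFs it was 1.95, 2.63 and 2.22 CPM at day 0 and 97.6, 47.6 and 45.6 CPM at day 4, a rise of 4.82 ± 0.37 (edgeR adjusted p = 3.22e-06). It remained at 60.8, 32.7 and 59.2 CPM at day 8, still in differentiation medium, and fell to 6.02, 6.95 and 6.63 CPM at day 12 (−2.93 ± 0.33, edgeR adjusted p = 8.77e-05). Between genotypes the preadipocyte libraries overlapped at each day, with log2 fold changes from 0.02 to 0.29. Dio2 was called lower in DKO MEFs of day 12, at 3.07, 2.57 and 3.05 CPM, by a log2 fold change of −1.14 ± 0.15 (edgeR adjusted p = 1.97e-05).

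Pde4b (chromosome 4, 102087543 to 102607259, mm10, plus strand), a cyclic AMP-specific phosphodiesterase, followed a course close to that of Dio2. WT preadipocytes had 37.6, 41.5 and 57.2 CPM at day 0, 90.5, 89.9 and 134 CPM at day 3, 36.3, 26.6 and 29.2 CPM at day 6 and 6.66, 4.32 and 5.02 CPM at day 9. The steps were 1.20 ± 0.21, −1.77 ± 0.22 and −2.52 ± 0.24 on the log2 scale, each called (edgeR adjusted p = 0.00126, 3.59e-05 and 8.7e-05). WT MEFs rose by 1.79 ± 0.13 to 69.4, 92.9 and 87.4 CPM at day 4 (edgeR adjusted p = 1.21e-06). They held 68.0, 75.8 and 67.6 CPM at day 8 and fell by 2.81 ± 0.14 to 10.2, 9.98 and 9.36 CPM at day 12 (edgeR adjusted p = 2.56e-07). DKO libraries of day 12 MEFs, at 5.91, 7.28 and 7.17 CPM, lay below the WT libraries, and the difference of −0.51 ± 0.11 passed the test under 1.5-fold (edgeR adjusted p = 0.00252). At day 8 the DKO libraries were above the WT libraries, at 83.3, 78.6 and 81.3 CPM, by 0.21 ± 0.07 (edgeR adjusted p = 0.518).

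Pde4d (chromosome 13, 108449948 to 109953461, mm10, plus strand), of the same family, rose by 1.97 ± 0.10 on the log2 scale from day 0 to day 3 in WT preadipocytes (edgeR adjusted p = 2.66e-07) and declined more slowly than it had risen. It was at 52.7, 41.7 and 50.0 CPM at day 6, a step of −0.57 ± 0.10 just under 1.5-fold (edgeR adjusted p = 0.000284) that 6 of the other settings took past it, and at 20.4, 19.0 and 19.9 CPM at day 9, a fall of 1.27 ± 0.10 (edgeR adjusted p = 2.21e-05). In WT MEFs it rose by 2.59 ± 0.31 to day 4 (edgeR adjusted p = 5.91e-05), and differences of −0.90 ± 0.29 and −0.78 ± 0.29 over the later steps did not pass (edgeR adjusted p = 0.0942 and 0.057). DKO preadipocytes stood above WT preadipocytes in Pde4d at each of the 4 days without overlap, and none of these differences was called with all libraries. How many of all genes keep such an order over the days was not counted. The log2 fold changes were 0.29, 0.27, 0.48 and 0.76 from day 0 to day 9 (edgeR adjusted p = 0.643, 0.275, 0.0427 and 0.102), of which that at day 6 passed under 1.5-fold. At day 9 the DKO libraries had 35.0, 22.6 and 45.0 CPM. Without DKO replicate 2 the difference was 0.99 and called (edgeR adjusted p = 0.00362). That refit called 9.72% of all tested genes, against 1.24% with all libraries. In day 12 MEFs the difference was 0.46 ± 0.10, under 1.5-fold (edgeR adjusted p = 0.00237). The pseudogene Rps3a3 lies within Pde4d on the same strand and had at most 629 counts.

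Across the genotype comparisons, 1 of 9 members was called in day 6 preadipocytes, where 11.6% of all tested genes were called, and 5 of 9 in day 12 MEFs (7.98% of all tested genes), 3 higher and 2 lower. The median log2 fold change of the members was 0.02 and 0.41 there, against −0.01 and 0.00 over all tested genes. At the other 6 days 0 members were called by edgeR, and the share of all tested genes was 0.218%, 0.337% and 1.24% in preadipocytes of days 0, 3 and 9 and 0.102%, 0.0905% and 0.0595% in MEFs of days 0, 4 and 8. In the order of these 6 comparisons, 1, 4, 4, 1, 1 and 2 members had an unadjusted p under 0.05. Over all tested genes these were 1188 of 15123, 1838 of 15119, 3984 of 14700, 1454 of 15671, 915 of 15475 and 1295 of 15117. DESeq2 called 0, 3, 3, 0, 0 and 0 members, beside 0.774%, 2.6%, 5.75%, 1.01%, 0.518% and 0.568% of all genes it tested. The count of limma-voom was 0 members in each. The median log2 fold change of the members in these comparisons was 0.29, 0.21, 0.19, −0.12, 0.28 and 0.21, against medians over all tested genes between −0.01 and 0.01. The 5 calls of day 12 MEFs held in every refit without 1 library and under DESeq2 and limma-voom. They were lost in 1 fit over all 24 MEF libraries, which shares 1 estimate of the spread with the widely spread days 4 and 8 (adjusted p from 0.0767 to 0.559). Libraries of the same genotype lay close together at day 12, and whether they came from separate embryos is not given in the labels.

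**Figure D4:**
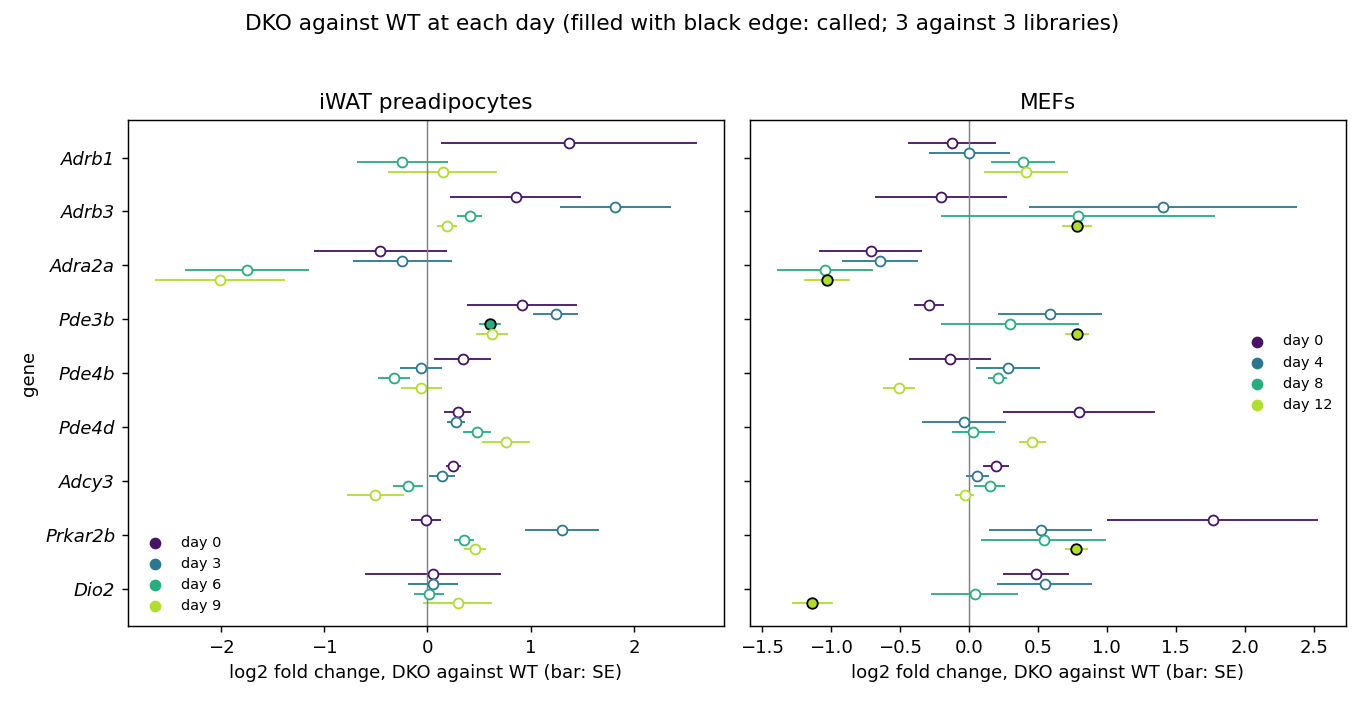
Log2 fold change of DKO against WT cells for the 9 genes at each day (bars, SE; points with a black edge and a coloured centre were called; 3 against 3 libraries). The 6 called points are Pde3b in day 6 preadipocytes and Adrb3, Adra2a, Pde3b, Prkar2b and Dio2 in day 12 MEFs.

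The 3 members called higher in day 12 MEFs stood beside a higher adipocyte marker sum, at 16848 to 17915 CPM in DKO against 11050.0 to 11397 CPM in WT libraries, a sum of 5 brown or beige markers (Ucp1, Cidea, Elovl3, Cox7a1, Cox8b) of 274 to 284 against 116 to 123 CPM, and a lower macrophage marker sum. In day 6 preadipocytes the adipocyte sum was 25208 to 30658 against 17783 to 22191 CPM and the brown or beige sum 661 to 814 against 204 to 325 CPM. The sum of 6 fibroblast or progenitor markers (Pdgfra, Pdgfrb, Dcn, Ly6a, Cd34, Dpp4) was lower in DKO libraries without overlap, at 1413 to 1811 against 2310.4 to 2316 CPM in day 12 MEFs and 1168 to 1414 against 1646 to 2167 CPM in day 6 preadipocytes. That of 4 smooth muscle markers (Myh11, Cnn1, Acta2, Des) was 107 to 206 against 240.3 to 247 CPM in day 12 MEFs and overlapped in day 6 preadipocytes. Over the 48 libraries Pde3b and Prkar2b were lowest at low and highest at high adipocyte sums, although in WT preadipocytes both had lower levels at day 9 than at day 6 while the sum was higher. Dio2 was highest at intermediate sums. Pde4b had its lowest means on the last day of each course, and its levels differed between libraries of like sums. DKO preadipocytes of day 6 replicate 2 held 27.6 CPM with a sum of 30658 CPM. Those of day 9 replicate 1 held 5.73 CPM with a sum of 30814 CPM. The part of these cell types in the genotype differences was not tested.

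**Figure D5:**
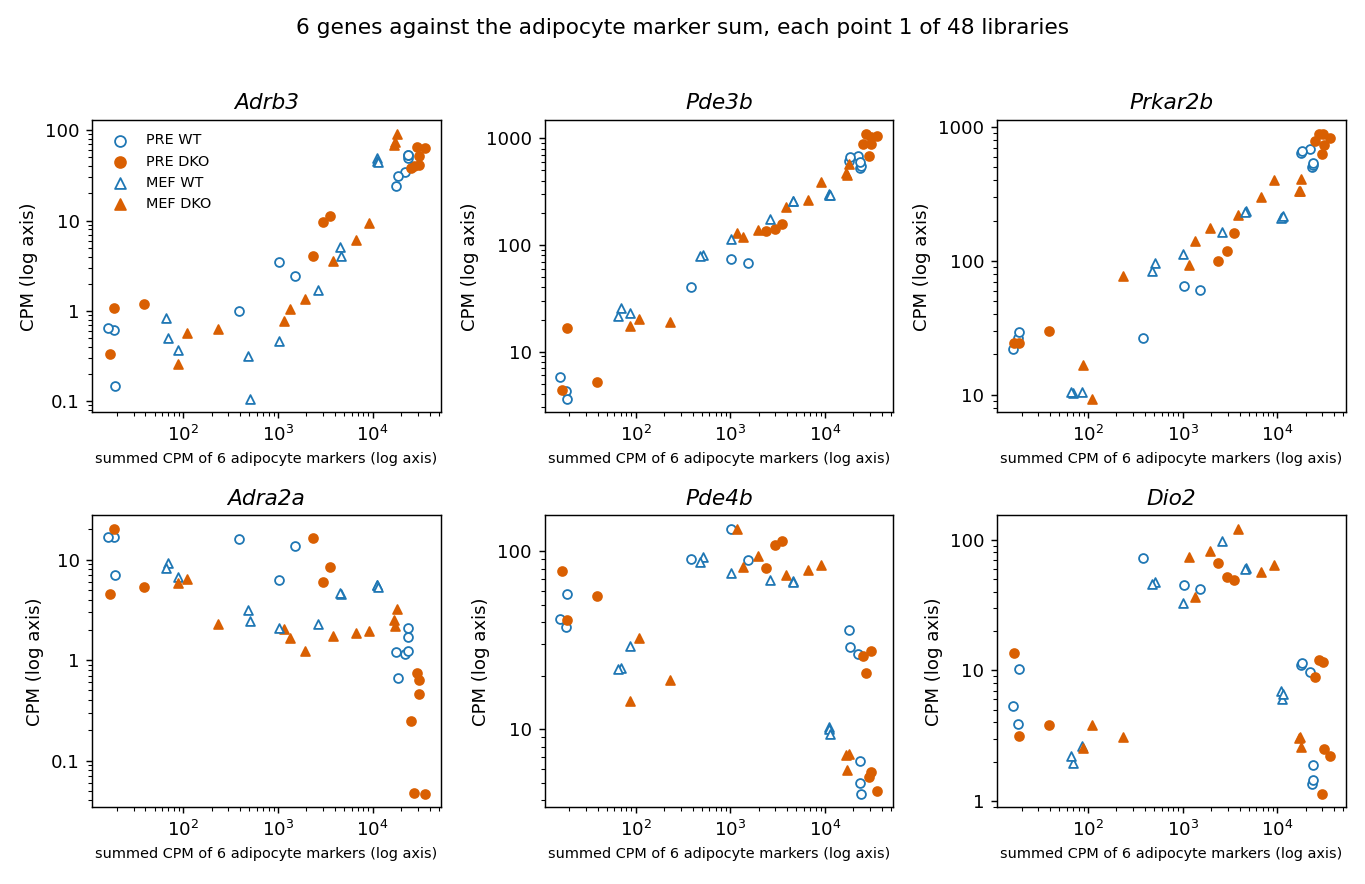
CPM of 6 of the genes against the summed CPM of 6 adipocyte markers, both on log axes, 1 point per library (circles, preadipocytes; triangles, MEFs; filled orange, DKO; open blue, WT). Pde3b and Prkar2b are high where the sum is high, Dio2 is low at both ends of it, and Pde4b varies widely among libraries with a high sum.

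Whether the genotype difference itself changed between neighbouring days was tested as a genotype-by-day interaction over the 24 libraries of a cell type. No member was called in any of the 6 interactions, which called 0.0948%, 0.51% and 0% of all tested genes in preadipocytes and 0.00588%, 0% and 0.00588% in MEFs. The MEF interactions come from the fit over all 24 MEF libraries in which the day 12 calls were lost. The lack of a call there does not show that the genotype differences were equal between days. At an unadjusted p under 0.05 there were 1, 2 and 0 members in preadipocytes and 0, 0 and 2 in MEFs. Over all tested genes these were 1188, 2525 and 746 of 16877 in preadipocytes and 1939, 542 and 831 of 16996 in MEFs. DESeq2, which called 1.51% of all genes it tested between days 0 and 3 of preadipocytes, called 1 member there, Prkar2b (adjusted p = 0.00966). That change was 1.31 ± 0.33 on the log2 scale with edgeR (unadjusted p = 0.000798, adjusted p = 0.17). From day 3 to day 6 the DKO excess of Prkar2b narrowed by −0.90 ± 0.32 and that of Adrb3 by −1.35 ± 0.50, and neither passed (edgeR adjusted p = 0.184 and 0.198). In MEFs the genotype difference of Dio2 moved by −1.18 ± 0.44 and that of Pde4b by −0.71 ± 0.33 from day 8 to day 12 (edgeR adjusted p = 0.905 and 1).

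A list of 90 other genes of the pathway was counted in the same comparisons. In day 6 preadipocytes 6 of 78 tested genes were higher and 7 lower in DKO cells, together 16.7% beside 11.6% of all tested genes. Among them were Adora1, an adenosine receptor that couples to Gi (1.59 ± 0.18 on the log2 scale, edgeR adjusted p = 0.00383), Ptger3, a prostaglandin E receptor (−1.84 ± 0.24, edgeR adjusted p = 0.00395), and Pde1a, a calcium-regulated phosphodiesterase (−0.87 ± 0.12, edgeR adjusted p = 0.00442). In day 12 MEFs 4 of 83 were higher and 8 lower, together 14.5% beside 7.98% of all tested genes, and these included the adenylyl cyclase Adcy5 (0.74 ± 0.06, edgeR adjusted p = 2.15e-06), the anchoring protein Akap6 (−0.90 ± 0.16, edgeR adjusted p = 0.000668) and the phosphodiesterase Pde11a (−1.91 ± 0.39, edgeR adjusted p = 0.00124). By role, 3 of 12 other phosphodiesterases were lower and 0 higher in DKO cells in day 12 MEFs, beside 7.98% of all tested genes called. In day 6 preadipocytes 2 of 12 were lower and 0 higher, beside 11.6%. The member Pde3b, also a phosphodiesterase, was called higher in both comparisons. Of the other adenylyl cyclases 2 of 8 were higher and 0 lower in the MEFs, and 1 of 7 was higher and 1 lower in the preadipocytes. Each of these counts rests on few genes. Of the 13 and 12 genes called in these comparisons, which share no library, 5 were called in both, each in the same direction: Adora1 was higher, and Adora2b, Pde7b, Pkib and Nr4a2 were lower, 38.5% and 41.7% of the lists. Over all tested genes, 435 were called in both, 25.6% of the 1699 and 35.6% of the 1222 calls, and 97.9% of them in the same direction. These last 4 were chosen after their values were seen. No gene of the list was called in the other 6 genotype comparisons or in the interactions.

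Over the days of WT cells the list moved widely. In preadipocytes 20 of 83 genes rose and 14 fell from day 0 to day 3, 22 rose and 21 fell to day 6, and 10 rose and 8 fell to day 9 (41%, 51.8% and 21.7% of the list beside 24.7%, 46.6% and 14% of all tested genes). In MEFs 19 of 85 rose and 25 fell from day 0 to day 4, 1 rose and 2 fell to day 8, and 21 rose and 6 fell to day 12 (51.8%, 3.53% and 31.8% beside 33.2%, 1.72% and 21.2%). Of 8 genes known to be induced by cyclic AMP (among them the nuclear receptors Nr4a1 and Nr4a3, the clock gene Per1 and the coactivator Ppargc1a), 7 rose in MEFs from day 0 to day 4, and 1 rose and 3 fell from day 8 to day 12. In preadipocytes 3 rose to day 3, and 1 rose and 4 fell from day 3 to day 6. Per1 rose by 1.85 ± 0.10 to day 3 of preadipocytes (edgeR adjusted p = 3.76e-07), beside Crem, a CREB family member (1.29 ± 0.11, edgeR adjusted p = 7.49e-06), while the protein kinase A subunit Prkar1b fell by 1.89 ± 0.18 (edgeR adjusted p = 1.32e-05). Ppargc1a rose by 5.19 ± 0.29 and the anchoring protein Akap7 by 1.35 ± 0.08 from day 3 to day 6 (edgeR adjusted p = 5.49e-08 and 8.18e-08). From day 6 to day 9 Nr4a3 and Pde7b, a cyclic AMP-specific phosphodiesterase, fell by 2.64 ± 0.25 and 2.49 ± 0.25, and the adenylyl cyclase Adcy1 rose by 3.07 ± 0.39 (edgeR adjusted p = 5.92e-05, 9.19e-05 and 0.00027).

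In MEFs Pde7b rose by 2.13 ± 0.08 to day 4 (edgeR adjusted p = 1.64e-08) and fell by 1.86 ± 0.08 from day 8 to day 12 (edgeR adjusted p = 1.25e-07). The catalytic subunit Prkacb and the arrestin Arrb2, which quenches receptors, fell by 1.01 ± 0.05 and 1.62 ± 0.08 to day 4 (edgeR adjusted p = 5.82e-08 and 6.04e-08). From day 4 to day 8 Nr4a1 fell by 1.34 ± 0.13 and Akap6 by 1.21 ± 0.24, and Adcy1 rose by 1.17 ± 0.26 (edgeR adjusted p = 0.0013, 0.0349 and 0.0442). From day 8 to day 12 Akap7 rose by 1.01 ± 0.10 and Arrb1 by 1.03 ± 0.10 (edgeR adjusted p = 1.82e-05 and 2.13e-05).

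For each member the genes with the most similar course were sought among 13913 genes over the 16 means of cell type, genotype and day, on log2 of CPM plus 0.5. Pde3b was most like Cebpa, a transcription factor of adipocyte differentiation (Pearson r = 0.994), and Arl4a (0.988). Adrb3 was most like Acaca, the fatty acid synthesis enzyme acetyl-CoA carboxylase (0.989), and the glycerol channel Aqp7 (0.986), and Prkar2b was most like the peroxisomal gene Pex11a (0.989) and Gm10925 (0.986). Pde4b was closest to Mybbp1a (0.982) and Cenpi (0.978), Dio2 to Ilf2 (0.983), and Pde4d to D10Wsu102e (0.937) and Alg11 (0.935). Adra2a was closest to Gpr153 (0.956) and Nhs (0.953), Adcy3 to Lmf2 (0.960) and Ddr2 (0.952), and Adrb1 to the DNA methyltransferases Dnmt3a (0.953) and Dnmt3b (0.951). Among the members themselves r was 0.941 for Pde3b and Prkar2b, 0.864 for Pde4b and Dio2 and 0.875 for Adra2a and Adcy3. These r are descriptions over 16 means that share libraries, medium changes and adipocyte content between genes, and they carry no p.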

How the data were processed

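RNA-seq of iWAT preadipocytes and MEFs was analysed from the deposited expected counts per gene, 1 table per cell type. The study's methods describe strand-specific 50 bp paired-end libraries. Per the submitters' processing notes the tools were bcl2fastq 2.17, cutadapt 1.18, STAR 2.7.0f and RSEM 1.3.0 with mm10. RSEM splits reads shared between genes, and 5.49% to 7.9% of a library's values were not whole. All were rounded. Each of the 55450 gene IDs matched GENCODE M21.

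Counts were filtered with filterByExpr, scaled with TMM and fitted with edgeR 4.0.16 (R 4.3.3, robust quasi-likelihood test), with Benjamini-Hochberg adjustment over all tested genes. Calls needed a 1.5-fold change beside an adjusted p under 0.05. DKO and WT libraries were compared per cell type and day (6 libraries), neighbouring days in the 12 WT libraries of a cell type, and the interaction in its 24 libraries. Levels are CPM with TMM over all 48 libraries, and log2 levels have 0.5 CPM added. Groups came from the sample labels. The test was tested on simulated data first. Alternatives were DESeq2 1.42.0, limma-voom (limma 3.58.1) with quantile normalization, library size alone, no filter on low counts, other fold thresholds, other sets of libraries in a fit, a block for the replicate number, and refits without each library.

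By the rule that every same-numbered pair must correlate above 0.1 after removing group means, the numbers paired WT and DKO libraries in none of the 8 comparisons (lowest pair −0.80 to 0.08), although at day 3 of preadipocytes the pairs stood at 0.443, 0.078 and 0.580. Same-numbered preadipocyte libraries of days 6 and 9 did, at 0.193 or above in WT and 0.452 or above in DKO cells, as did DKO libraries of days 0 and 3, at 0.492 or above. Replicates differed beyond sampling noise (chi-square per degree of freedom 2.16 to 168).

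The 9 genes, the list of 90 pathway genes and the marker lists were chosen with earlier results of these data known. From the list, the 3 calls of lowest p in each comparison are named, and for each member the 2 most similar genes with a mean of at least 1 CPM, apart from items that are not reported here. ATAC-seq, ChIP-seq and single-cell data were not analysed here.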

Additional observations from a re-analysis of the deposited data

Results flagged for a closer look

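The order of DKO and WT libraries in Pde3b changed over the MEF course. The day 0 difference of −0.29 ± 0.11 on the log2 scale did not pass (edgeR adjusted p = 0.532). At day 0 all 3 DKO libraries lay below the 3 WT libraries, and at day 12 all 3 lay above them, so that the log2 fold change of DKO against WT cells moved by 1.07 between these days. The difference between days 0 and 12 was not tested, and the share of all genes with such a reversal was not counted.

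For Pde4b the order changed the other way between days 8 and 12 of MEFs. The day 8 difference of 0.21 ± 0.07 did not pass (edgeR adjusted p = 0.518). All 3 DKO libraries were above the WT libraries at day 8 and below them at day 12, and the change in log2 fold change was −0.71 (edgeR interaction of genotype and day, unadjusted p = 0.0438, adjusted p = 1).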

How the results depend on the processing

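No log2 fold change with an unadjusted p under 0.05 changed sign under any setting. The number of members called in DKO against WT preadipocytes moved with the settings. At day 3 it was 0 with edgeR (0.337% of all tested genes called), 3 with DESeq2 (2.6%) and 2 with a replicate block (1.84%). It was 3 in 1 fit over all days (2.35%) and 0 to 1 without 1 library. At day 6 it was 1, 4 with no fold threshold, and 0 with a 2-fold threshold, library size alone, limma-voom or 1 fit over all days, and 0 to 2 without 1 library. At day 9 it was 0 (1.24% of all tested genes called), 3 with DESeq2 (5.75%), and 1 with no filter on low counts (1.68%) or 1 fit over all days (3.08%). It was 0 to 4 without 1 library, with the 4 in the refit without DKO replicate 2 (9.72%). The interaction of days 0 and 3 gave 1 with DESeq2. In day 12 MEFs the 5 calls became 2 at a 2-fold threshold and 0 in 1 fit over all days. WT MEFs of day 8 against day 4 gave 0 (1.72% of all tested genes called), 3 with DESeq2 (6.91%) and 1 with library size alone (4.95%). They gave 0 to 5 without 1 library (0.0896% to 15.3%). Where a fit over all days gave fewer or more calls than 1 day alone, the cause was not tested. Library size alone shifted the median log2 fold change of all tested genes to −0.11 at day 6 of preadipocytes (DKO against WT), −0.17 from day 3 to day 6, 0.17 from day 0 to day 4 of MEFs and −0.14 from day 4 to day 8, and moved the share of higher calls among all calls from 43.5% to 28.8% at day 6 of preadipocytes and from 49.2% to 38.5% at day 12 of MEFs. Of 144 group means in CPM, 27 moved by more than 1 SD.

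The replicate block, where the numbers pair the libraries (WT preadipocytes of day 9 against day 6), gave 4 members called against 3, adding Adra2a at 0.77. Where they do not, it added Adrb3 and Pde3b at day 3 of preadipocytes (278 calls over all genes against 51) and removed Adrb1 from day 12 against day 8 of MEFs. It changed no other call. Adra2a and Adrb1 in preadipocytes of days 6 and 9 rest on 1 to 45 counts per library, and smaller differences in them were not detectable at this depth.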
